A study of Homo sapiens with 6 samples.

Results

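The alpha class of glutathione S-transferases in the human genome is encoded by GSTA1, GSTA2, GSTA3, GSTA4 and GSTA5, which lie side by side on the minus strand of chromosome 6. These 5 genes, of 20033 protein-coding genes with an annotated transcription start site (TSS), were examined for chromatin bound in HepG2 cells by the tandem Tudor domain (TTD) of the protein UHRF1. The cluster was picked from the measured peaks because the window of 2.5 kb on each side of the GSTA2 TSS lies wholly in TTD peaks, so the cover of GSTA2 is given as a description and was not tested.

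HepG2 is an established human cell line derived from a hepatoblastoma, a liver tumour. In CIDOP-seq, native mononucleosomes released with micrococcal nuclease are pulled down with a GST-tagged reading domain in place of an antibody, here UHRF1 residues 126 to 280, and the recovered DNA is sequenced. The study had 2 replicates each of UHRF1-TTD CIDOP, H3K9me2 ChIP and input, 6 libraries in all, and the values below come from 1 list of 31569 broad TTD peaks called on the mean of both CIDOP replicates. The list gives positions and widths but no height, score or replicate, so the spread between replicates cannot be stated, the depth behind a peak is unknown, and a region without a peak may have missed the cutoffs of the authors or have been removed as blacklisted or by hand. All libraries are from 1 tumour line, which limits what the map says about liver. The GST of the bait is a purification tag and not a readout of the GSTA genes.

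Glutathione S-transferases join the tripeptide glutathione to reactive electrophiles, which makes drugs, carcinogens and products of lipid peroxidation easier to export from the cell. The alpha class is abundant in hepatocytes, where GSTA1 and GSTA2 are the main forms; GSTA3 acts on steroid precursors and GSTA4 on hydroxyalkenals such as 4-hydroxynonenal. The tandem Tudor domain of UHRF1 reads histone H3 methylated at lysine 9. The study was concerned with how methylation of lysine 4 on the same histone bears on this reading. The paper reports that genes with the largest loss of expression in HepG2 relative to liver had more TTD signal around their TSSs. Expression was not examined here, and a TTD peak is not read as a mark of a silent or active gene. UHRF1 is known for its part in the maintenance of DNA methylation.

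The promoters of GSTA2 and GSTA1 are shown because both lie wholly in TTD peaks and are near-copies of each other. Each is 300 bases long, 250 before and 50 after the RefSeq start (GRCh38.p14, minus strand, 5′ to 3′), and comes from chr6:52763426-52763725 for GSTA2 and from chr6:52803767-52804066 for GSTA1. Capitals mark the 12 positions at which they differ when laid side by side without gaps.
GSTA2: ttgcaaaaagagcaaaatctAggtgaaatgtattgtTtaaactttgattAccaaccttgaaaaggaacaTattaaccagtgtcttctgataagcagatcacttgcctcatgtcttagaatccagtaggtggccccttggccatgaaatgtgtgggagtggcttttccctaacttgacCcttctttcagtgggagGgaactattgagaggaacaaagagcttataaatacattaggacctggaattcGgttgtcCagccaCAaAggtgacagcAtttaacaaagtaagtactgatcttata
GSTA1: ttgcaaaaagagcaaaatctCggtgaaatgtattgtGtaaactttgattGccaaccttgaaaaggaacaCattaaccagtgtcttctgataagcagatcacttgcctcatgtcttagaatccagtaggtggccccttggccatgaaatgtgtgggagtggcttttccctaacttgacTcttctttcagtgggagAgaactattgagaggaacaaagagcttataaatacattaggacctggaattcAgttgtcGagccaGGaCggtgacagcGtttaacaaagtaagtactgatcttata

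The sequences were identical at 288 of 300 positions, or 96.0%. Counted from 1 at the 5′ end with the GSTA2 base given before the GSTA1 base, the differences within the 250 bases before the start were A21C, T37G, A50G, T70C, C178T, G195A and G247A, and those after it were C254G, C260G, A261G, A263C and A273G. Both promoters held TATAAA, the core of a TATA box, 30 bp before the RefSeq start, and the reverse complement of GTTAAT, part of the site of the liver factor HNF1, from 180 bp before it. Matches to TATAAA occurred in 11.5% and matches to GTTAAT in 6.88% of the 35116 promoters of the RefSeq table, counted on both strands.

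The promoters of GSTA5, GSTA3 and GSTA4 are shown for contrast, since no base of them lies in a TTD peak. They come from chr6:52840764-52841063, chr6:52909649-52909948 and chr6:52995235-52995534 in the same layout, and here capitals mark CpG. The first annotated exon of GSTA5 has 117 bp, 87 of them coding, the same lengths as exon 2 of GSTA2 and GSTA1. The annotated GSTA5 start, and so the window shown, may therefore not be the counterpart of theirs.
GSTA5: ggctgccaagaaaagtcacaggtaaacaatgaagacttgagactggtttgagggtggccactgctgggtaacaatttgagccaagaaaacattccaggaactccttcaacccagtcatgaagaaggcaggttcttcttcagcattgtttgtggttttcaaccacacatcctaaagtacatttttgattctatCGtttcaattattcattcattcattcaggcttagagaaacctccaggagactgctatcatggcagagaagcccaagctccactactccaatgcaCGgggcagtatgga
GSTA3: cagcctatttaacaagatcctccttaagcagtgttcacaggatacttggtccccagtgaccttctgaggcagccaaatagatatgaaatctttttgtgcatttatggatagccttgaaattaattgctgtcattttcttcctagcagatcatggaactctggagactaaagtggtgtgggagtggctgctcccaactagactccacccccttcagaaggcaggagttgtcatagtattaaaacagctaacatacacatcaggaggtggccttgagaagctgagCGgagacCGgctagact
GSTA4: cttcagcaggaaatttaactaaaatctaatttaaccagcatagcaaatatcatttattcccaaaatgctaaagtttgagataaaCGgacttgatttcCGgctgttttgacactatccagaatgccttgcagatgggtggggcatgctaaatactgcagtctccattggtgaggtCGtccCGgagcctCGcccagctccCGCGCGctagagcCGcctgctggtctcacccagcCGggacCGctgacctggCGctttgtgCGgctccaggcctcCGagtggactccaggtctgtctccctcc

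The GSTA4 promoter held 14 CpG, the median over all promoters of the table, against 2 each in GSTA5 and GSTA3, 4 in GSTA1 and 1 in GSTA2. In the 1 kb around the GENCODE start, the CpG observed/expected ratio was 0.0912 for GSTA2, 0.204 for GSTA1, 0.195 for GSTA5 and 0.128 for GSTA3, all in the lowest quartile of protein-coding genes, and 0.651 for GSTA4, in quartile 2. A low CpG ratio was therefore shared by the promoters that lay in peaks and by 2 that did not. Of the other motifs searched, TGTTTAC (FOXA) was found in GSTA5 from 229 bp before the start on the reverse strand, and TGACNNNGC (the core of the antioxidant response element) in GSTA4 from 9 bp before it. They occurred in 3.42% and 13.3% of all promoters. CAAAGTCCA (HNF4A, 0.384% of all promoters) and TGANTCA (AP-1, 7.71%) had no match in the 5 windows, and no matches of different motifs overlapped in them.

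TTD peaks covered GSTA2 and GSTA1 almost whole and left GSTA3, GSTA4 and the annotated body of GSTA5 bare. A peak touched the TSS window of 3 of the 5 genes (GSTA2, GSTA1 and GSTA5), against 16.9% of all protein-coding TSS windows (3390 of 20033, 95% Wilson interval 16.4 to 17.4%, counting error only). Since the cluster was chosen by such a window, nothing is read from this count. Complete cover, as at GSTA2, was found for 44 windows or 0.22% of all, and the next member, GSTA1, stood at 70.0%. A TTD peak lay in the body of 2 of the 5 genes, against 34.2% of all protein-coding gene bodies.

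**Figure D1:**
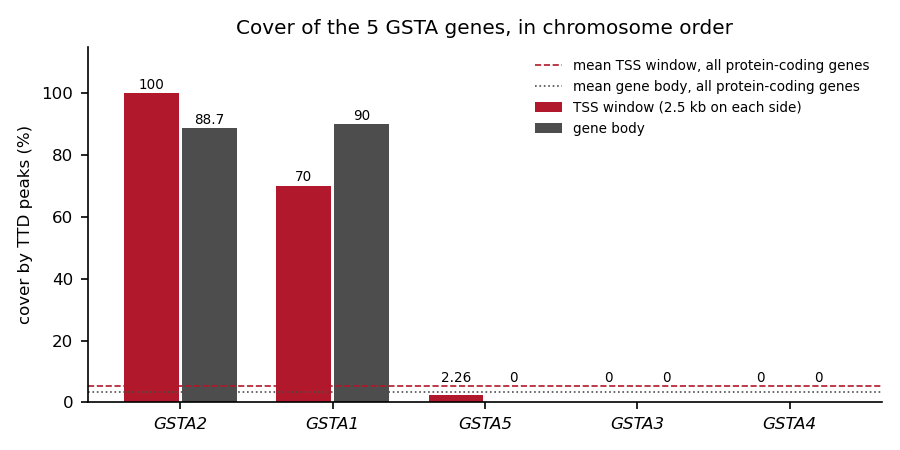
Percent of the TSS window (2.5 kb on each side) and of the gene body that lies in TTD peaks, for the 5 GSTA genes in chromosome order, with the means over all 20033 protein-coding genes as horizontal lines (5.30% for TSS windows and 3.39% for gene bodies). GSTA2 and GSTA1 stand far above both lines, and GSTA3 and GSTA4 are at 0.

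GSTA2 (ENSG00000244067.3, chr6:52750087-52763475) was covered to 88.7% over its 13389 bp. Its TSS lay in a peak of 11320 bp, chr6:52755951-52767270, which reached 3795 bp upstream and 7524 bp downstream of the TSS and therefore passed the edges of the window by 1295 and 5024 bp. This peak ranked 507 by width among the 31569 peaks. It held exons 1, 2 and 3 of GSTA2, and a further peak of 5500 bp, chr6:52748941-52754440, held exons 5, 6 and 7 and ran past the 3′ end of the gene. Exon 4 alone lay outside, in the gap of 1510 bp between the peaks.

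GSTA1 (ENSG00000243955.6, chr6:52791371-52803860), the closest relative of GSTA2 in the cluster, was covered to 90.0% in a similar layout. A peak of 7170 bp, chr6:52797691-52804860, held the TSS and exons 1 and 2, and a peak of 13860 bp, chr6:52782581-52796440, held exons 4 to 7. Exon 3 lay in the gap of 1250 bp between them. The gaps thus fell at like places in both genes, from 7525 to 9034 bp after the TSS in GSTA2 and from 6170 to 7419 bp in GSTA1, and both took in most of intron 3, of which 26.0% was covered in GSTA2 and 9.91% in GSTA1. At the TSS the genes differed in how far the peak went upstream. In GSTA1 it ended 1000 bp before the TSS, so that 40.0% of the upstream 2.5 kb was covered, compared with 100% in GSTA2, and the downstream 2.5 kb were covered to 100% in both.

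The counts of genes covered as much are given as a description. GSTA2 was chosen by its TSS window, which overlaps its gene body, so nothing is read from these counts. A gene body cover of at least that of GSTA2 was found for 45 protein-coding genes (0.225%), and of at least that of GSTA1 for 41 (0.205%). A TSS window cover of at least that of GSTA1 was found for 213 genes (1.06%).

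GSTA5 (ENSG00000182793.12, chr6:52831655-52840843) had no peak over its 9189 bp or any of its 6 exons. Its TSS window counted as touched because a peak of 4890 bp, chr6:52843231-52848120, began 2388 bp upstream of the TSS and overlapped 2.26% of the window. On the other side a peak of 10390 bp, chr6:52820181-52830570, stopped 1085 bp short of the 3′ end. The annotated body of GSTA5 was thus bare between broad peaks. The annotation gives GSTA5 no counterpart of the noncoding first exon of 32 bp in GSTA2 and GSTA1. In those genes exon 2, which matches the first exon of GSTA5 in length, began 5498 and 4563 bp after the TSS. A GSTA5 start at a like distance upstream would fall in the peak of 4890 bp, and whether 1 exists was not examined.

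GSTA3 (ENSG00000174156.15, chr6:52896639-52909698) had no peak in its gene body or TSS window. The nearest peak to its TSS was 7740 bp wide, chr6:52914751-52922490, and began 5053 bp upstream, and a peak of 3370 bp, chr6:52892001-52895370, ended 1269 bp from the 3′ end. Neither of the other annotated starts of GSTA3 had a peak in its window, among 3 starts in all.

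GSTA4 (ENSG00000170899.11, chr6:52977948-52995304) had no peak either, and its TSS lay the farthest from one among the 5 genes. The nearest was 18504 bp downstream of the TSS, a peak of 1880 bp at chr6:52974921-52976800 that lay 1148 bp beyond the 3′ end of the gene. None of the 6 annotated starts of GSTA4 had a peak in its window, and the 50 kb upstream of the gene contained no peak.

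**Figure D2:**
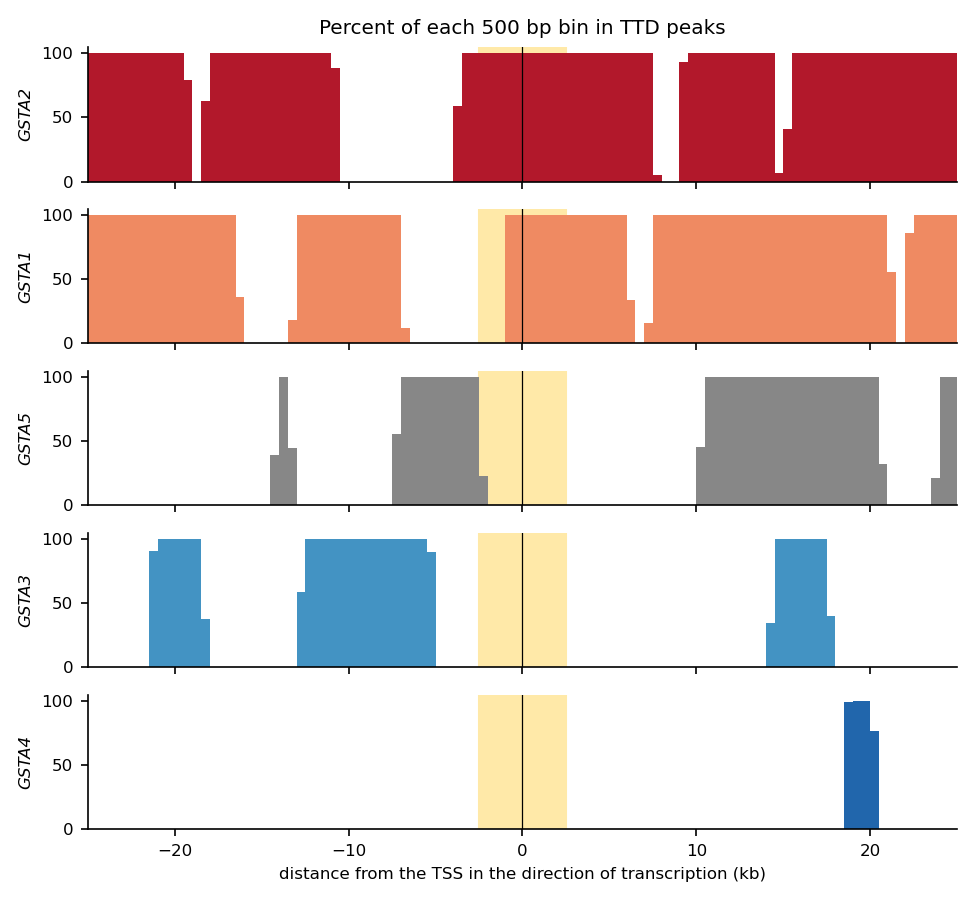
Percent of each 500 bp bin in TTD peaks over 25 kb on each side of the TSS of the 5 GSTA genes, in the direction of transcription, with the TSS window of 2.5 kb on each side shaded. Over these 50 kb the mean cover was 80.4% for GSTA2, 77.6% for GSTA1, 34.6% for GSTA5, 28.5% for GSTA3 and 3.76% for GSTA4.

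Similarity in coding sequence and cover were set side by side. All 5 coding sequences had 666 bases in the reference transcripts. In pairwise global alignments GSTA2 was 96.7% identical to GSTA1, 92.9% to GSTA5 and 91.9% to GSTA3, but 63.7% to GSTA4. The order of identity to GSTA2 was thus also the order along the chromosome and that of the mean cover over the 50 kb around the TSS. These windows share sequence between GSTA2 and GSTA1 and between GSTA1 and GSTA5. The order of cover differed with 10 kb on each side, at 64.1% for GSTA1, 61.4% for GSTA2, 24.7% for GSTA3 and 24.4% for GSTA5. GSTA5 and GSTA3, close to GSTA1 in identity, had no peak in the annotated gene body.

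From the first base of GSTA2 to the last base of GSTA4 (245218 bp) the list held 14 peaks, which covered 35.6% of the interval. Chromosome 6 as a whole was covered to 5.33%, and of its 696 adjoining windows of this size 10 (1.44%) were covered at least as much as the GSTA interval. This rank is a description only, as the cluster was chosen by its cover, and nothing is read from it. The 14 peaks were from 920 to 13860 bp wide, with a median of 5825 bp against 2250 bp for all peaks, and 8 of them were at least 5 kb wide, as were 13.6% of all peaks. The widths are a description too, since a window of 2.5 kb on each side that lies wholly in 1 peak requires a wide peak. Only 2 of the 14 contained the TSS of a member, those of GSTA2 and GSTA1. The GC content of the 14 peaks had a median of 43.1%, close to the 43.2% over all peaks. It was 40.5% in the peak with the TSS of GSTA2 and 38.6% in that with the TSS of GSTA1.

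The cover was denser in the GSTA2 and GSTA1 portion of the cluster than in the rest. Between GSTA2 and GSTA1 (27895 bp) 72.9% of the sequence lay in 3 peaks, and between GSTA1 and GSTA5 (27794 bp) 63.1%. Between GSTA5 and GSTA3 (55795 bp) the cover was 16.5%, and between GSTA3 and GSTA4 (68249 bp) it was 25.1%. Of the stretch from the first base of GSTA2 to the TSS of GSTA1, 80.8% was covered, compared with 22.9% of the stretch from there to the TSS of GSTA4. The dense cover also continued beyond GSTA2. The 50 kb past its 3′ end were covered to 61.3%, most of it by a peak of 29480 bp, chr6:52718701-52748180, which ranked 19 by width in the whole list.

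**Figure D3:**
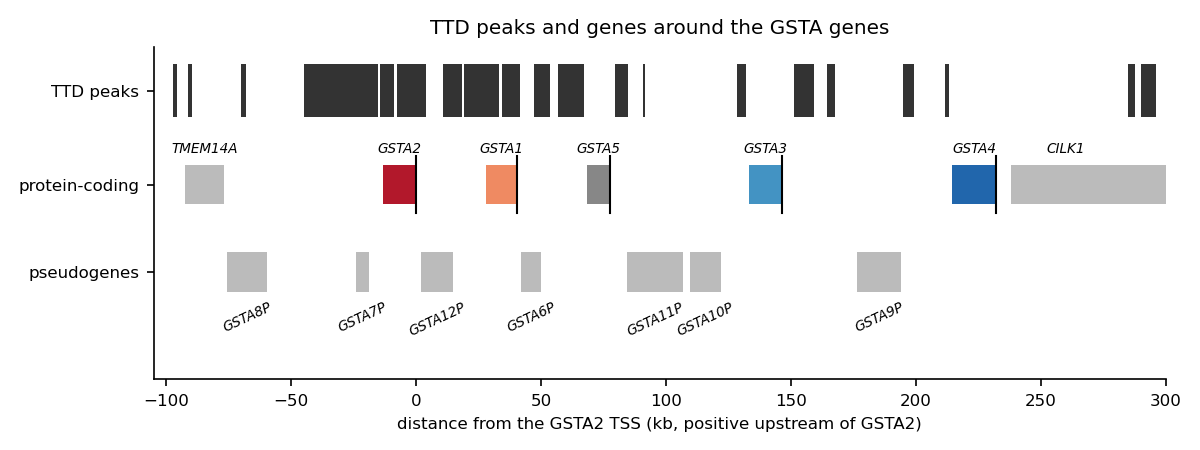
TTD peaks, protein-coding genes and pseudogenes around the GSTA genes, drawn to scale in kb from the GSTA2 TSS, with black lines at the TSSs of the members and long noncoding RNAs left out. Peaks follow each other closely from 44.8 kb downstream to 67.1 kb upstream of the GSTA2 TSS and are scattered from GSTA5 to GSTA4.

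Joined over gaps of less than 5 kb, the peaks around the GSTA2 TSS formed a run of 3 peaks and 48570 bp, of which 95.3% was covered. Such runs numbered 24329 in the list, and 74 of them (0.304%) were as long. Joined over gaps of less than 10 kb, the run held 8 peaks, took in GSTA1 and measured 111870 bp with 81.9% covered, and 23 of 20920 runs (0.110%) were as long, 6 of them on chromosome 6. It ended 1085 bp from GSTA5. Both limits on the gap were chosen after the peaks had been seen, and the cluster was chosen by its cover. Nothing is therefore read from the lengths of these runs among the others.

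Chromosome 6 was itself rich in TTD peaks. It ranked 3 of 24 chromosomes by cover, with 16.7 peaks per Mb, and 29.2% of its protein-coding TSS windows had a peak. The GSTA interval, at 57.1 peaks per Mb, lay above this level. Nothing is read from that, as the cluster was chosen by its cover. The number of copies of chromosome 6 in these cells was not measured here, and its part in the cover was not tested.

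The interval also contains copies of GSTA genes that no longer encode protein, and they differed in cover. GSTA12P, between GSTA2 and GSTA1, had 100% of its TSS window and 48.3% of its body in peaks. GSTA6P, between GSTA1 and GSTA5, had 100% and 33.9%. Between GSTA5 and GSTA3, no peak was found in the TSS window of GSTA11P or GSTA10P, and the bodies were covered to 5.04% and 0%. GSTA9P, between GSTA3 and GSTA4, had 37.4% of its TSS window and none of its body covered, and the overlapping noncoding gene ENSG00000291036 had 14.6% and 13.2%. The small processed pseudogene ENSG00000288014 had no peak. Of those outside the interval, named after their values were seen, GSTA7P, 5430 bp past the 3′ end of GSTA2, was covered to 100% in both window and body by the peak of 29480 bp, and GSTA8P, 46261 bp past it, had 0% of its window and 12.9% of its body in peaks.

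Near-copies raise the question whether reads can be placed. Of the words of 100 bases that start in the interval, 96.2% were found only at their own place in hg38, on either strand. This share was 95.3% in the peaks of the interval and 96.7% outside them, and it was lowest in the peaks that hold the TSSs of GSTA2 (86.8%) and GSTA1 (88.7%) among the 14 peaks. In the gaps without a peak upstream of these peaks it was 82.1% and 87.7%. In the TSS windows it was 88.98% for GSTA2, 90.1% for GSTA1, 99.3% for GSTA5, 92.6% for GSTA3 and 97.6% for GSTA4. With words of 50 bases the share was 69.2% for GSTA2 and 73.9% for GSTA1, and from 87.3% to 92.7% for the other members. With words of 150 bases, the length of the reads, it was 95.8% for GSTA2 and for GSTA1, 95.6% for GSTA3, and 100% for GSTA5 and GSTA4. In the gene bodies the share of words of 100 bases was 94.0% for GSTA2, 93.8% for GSTA1 and 94.2% for GSTA3, and 100% for GSTA4 and GSTA5 after rounding. How reads with several placements were treated is not given in the sources used here, and their part in the cover was not tested.

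**Figure D4:**
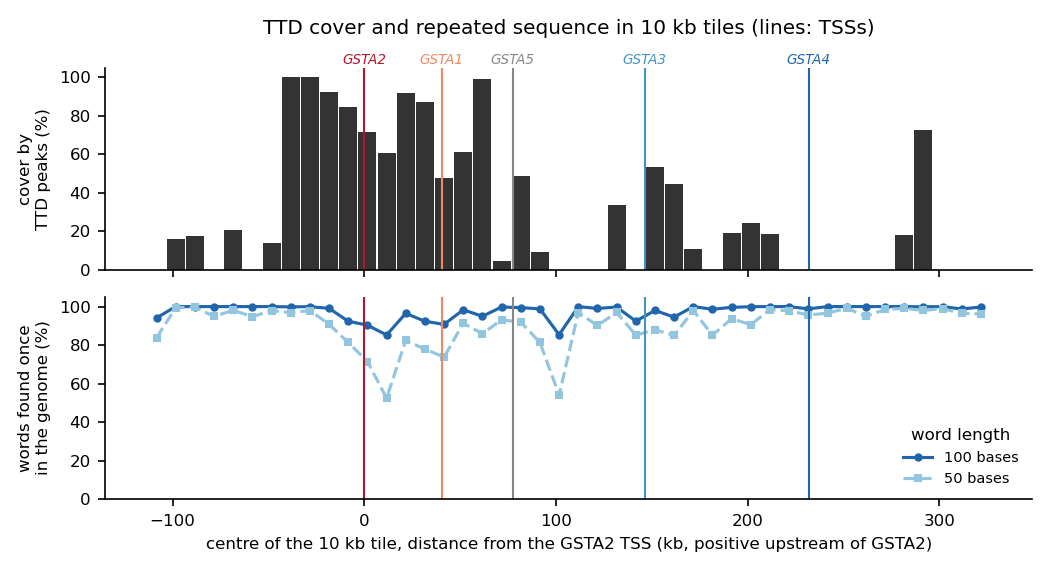
Percent of each 10 kb tile in TTD peaks (above) and percent of words of 100 and 50 bases found only once in the genome (below), by distance from the GSTA2 TSS, with lines at the TSSs of the members. For words of 100 bases the median is 97.2% over the 12 tiles with at least 50% in peaks and 100% over the 17 tiles without a peak.

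The genes named here on either side of the cluster had less cover than GSTA2 and GSTA1. Beyond the 3′ end of GSTA2 come TMEM14A, with 31.7% of its TSS window and 11.2% of its body in peaks, and TRAM2, with 0% and 19.6%. Upstream of GSTA4 come CILK1, which encodes a ciliogenesis kinase, with 3.14% and 15.0%, the 120 bp gene ENSG00000288614 without a peak, and FBXO9, an F-box protein gene, with 57.4% and 12.5%.

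Other genes of the enzyme family were examined in the same way. Of 20 further genes of glutathione S-transferases and the related membrane family, 19 were found on the main chromosomes of the annotation, and 2 of these (10.5%) had a peak in the TSS window, against 16.9% of all protein-coding TSS windows. They were MGST2 (54.2% covered) and MGST1 (47.4%), both microsomal enzymes. None of the 5 mu class genes, nor the pi, theta, omega, zeta, kappa or sigma class genes, had one. A peak lay in the body of 6 of the 19, against 34.2% of all gene bodies, with the highest cover at GSTO2 (36.0%) and GSTO1 (26.3%), named after their values were seen. The median TSS window cover of the 19 genes was 0%, as over all protein-coding genes, and 2.26% for the 5 GSTA genes.

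In the glutathione pathway, 8 of 26 genes (30.8%) had a peak in the TSS window, against 16.9% of all protein-coding TSS windows, with a median cover of 0%. The highest was GCLC, the catalytic subunit of the enzyme that limits the rate of glutathione synthesis, which is also the pathway gene nearest to the cluster, 502036 bp beyond GSTA4. The window at its outermost annotated start was covered to 86.0% and its body to 23.3%. The CpG ratio there was 0.147, in the lowest quartile. Other starts of GCLC were not examined, so the value may not hold for its main promoter. By role, 2 of 3 genes of synthesis had a peak in the window, as had 3 of 6 peroxidases, among them GPX3 at 43.8%, 1 of 4 efflux pumps, 1 of 10 genes of breakdown, 1 of 2 regulators, and not the reductase gene. With only peaks of at least the median width of the list, 3 of the 26 genes had one, against 7.29% of all protein-coding genes.

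The GSTA genes were set beside 4 other clusters of detoxification genes. Since the GSTA cluster was chosen by its cover, nothing is read from its place among them. The GSTA interval was covered to 35.6% with 57.1 peaks per Mb. The interval of the 7 UGT2B genes was covered to 27.9% with 55.6 peaks per Mb, that of the 7 alcohol dehydrogenase genes to 17.8%, that of the 5 GSTM genes to 3.39% and that of the 4 CYP2C genes to 2.33%. These intervals differ in length, from 119330 to 988842 bp. Cover also varied within the other clusters. The TSS windows of UGT2B10 and ADH4 were covered to 100%, like that of GSTA2, those of ADH6, UGT2B15 and UGT2B7 to 70.8%, 56.2% and 49.6%, and that of CYP2C18 to 47.4%, whereas 4 UGT2B genes, 5 alcohol dehydrogenase genes and all 5 GSTM genes had no peak there. The highest gene body cover in these 4 clusters was 78.6%, at UGT2B15.

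**Figure D5:**
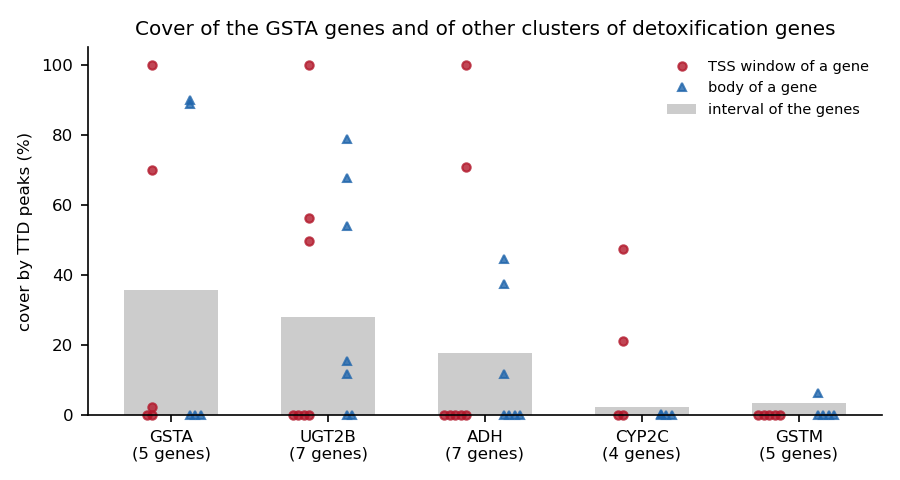
Cover by TTD peaks of the TSS window (circles) and body (triangles) of each gene, and of the whole interval of the genes (bars), for the GSTA cluster and 4 other clusters. Equal values at 0 are spread sideways, and ADH stands for alcohol dehydrogenase.

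The genes with a cover profile most like that of GSTA2 were sought over 100 bins of 500 bp in the 25 kb on each side of the TSS. Outside the GSTA interval, the smallest mean absolute differences were found for SCN1A, a neuronal sodium channel (22.2 percentage points), ABCA9, a transporter of the ABC family (25.5), SULT1E1, the oestrogen sulfotransferase (25.9), SLC2A2, the glucose transporter GLUT2 of hepatocytes (27.2), and TECTB, a protein of the inner ear (27.4). For GSTA1 the difference from GSTA2 was 29.5 points, and the median over all genes outside the interval was 80.4, the value of a gene without a peak in these windows. Their TSS windows differed from that of GSTA2, at 100%, and were covered to 88.2% in SULT1E1, 73.8% in SCN1A, 55.2% in TECTB, 50.6% in ABCA9 and 15.4% in SLC2A2. GSTA5, GSTA4 and GSTA3 differed from GSTA2 by 62.7, 76.6 and 79.3 points. Including GSTA2, 7 protein-coding genes had a mean cover over these 50 kb of at least 80.4%. As GSTA2 was chosen by its cover, nothing is read from this count.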

How the data were processed

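TTD CIDOP, H3K9me2 ChIP and input were sequenced from HepG2 cells as 2 replicates each. According to the methods and the submitters' processing notes, the authors trimmed reads with Trimmomatic 0.38, checked them with FastQC 0.72, mapped them to hg38 with HISAT2 2.2.1 and computed coverage with deepTools 3.3.2. Broad peaks were called with MACS2 2.1.1 on the mean of both TTD replicates, and were freed of blacklisted regions and curated by hand. The deposited values are the start, end and width of each peak in bp, on a grid of 10 bp for all 31569 peaks. No input track or correction for copy number is named for the peak calling. The ChIP, input and single replicate signals were not analysed here.

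Cover is the percent of a window in peaks, computed on hg38 with GENCODE release 44. The TSS of a gene is the outermost 5′ end of its record, which may not be its main start. Promoters came from RefSeq (GRCh38.p14, 5 of 5 members matched). Words of 100 bases were counted on both strands of the main chromosomes. Coding sequences were aligned globally with Biopython 1.88; Python 3.11.15, numpy 2.4.6, numba 0.67.0 and matplotlib 3.10.9 were used. The interval arithmetic and the word counts were tested on simulated data. The members and lists were chosen with earlier results of these data known. Named are the members, all genes of the interval, the 3 nearest protein-coding genes on each side (of which 1 is not reported here), the 10 list genes with the highest TSS window cover, the nearest pathway gene and the 5 genes most like GSTA2. Alternatives were other windows and starts, peaks of at least the median width, joined peaks and other word lengths.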

Additional observations from a re-analysis of the deposited data

How the results depend on the processing

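No paired analysis was done, since the list used joins both replicates and no value comes from a test. The single replicate signals were not analysed here, so no replicate was left out. Values were compared by the 95% Wilson interval with 150 bp as the unit, and counts by a factor of 1.5. Neighbouring units within a broad peak are not independent, so the interval is only a working limit for a moved value and states no spread. The cover of the GSTA2 TSS window was 100% with 1 kb on each side, with only peaks of at least the median width (2250 bp) and with joined peaks. These settings could give no other value, since the window was chosen for complete cover and its peak is 11320 bp wide. The cover was 88.0% with 5 kb and 61.4% with 10 kb on each side, since the window then reaches past the peak. A peak lay in the TSS window of 2 members with 1 kb on each side or when at least 10% of the window had to be covered, and of 4 members with 10 kb. The share of all TSS windows under these settings is not given here, so nothing is read from these counts. The interval of the 5 members was covered to between 34.5% and 37.8% with only the wider peaks, with joined peaks and with 25 kb added on each side. Its number of peaks was 12 with only the wider peaks, 13 with joined peaks and 14 when at least 50% of the peak had to lie inside. The peaks were not counted with 25 kb added. The share of all TSS windows with a peak was 12.8% for genes of any type and 7.29% with the wider peaks. The share of words found once was 85.4% for 50 bases and 98.4% for 150 bases. For single members, stretches and other clusters, 2 of 27 values moved, which were the UGT2B interval (25.9% with the wider peaks) and the length of the run of peaks under the wider limit on gaps. Both of these alternatives, and the count of 3 glutathione pathway genes with the wider peaks, were added after seeing the data. The unknown depth and the lack of scores limit every statement on regions without a peak.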

Other observations

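Beyond FBXO9 the peaks became dense again at GCM1, which encodes a transcription factor of the placenta and lies 131656 bp from GSTA4. Its body was covered to 64.5% by 2 peaks, while its TSS window had none, the nearest peak being 5180 bp away. ELOVL5, a fatty acid elongase gene 272093 bp from GSTA4, was covered to 19.4% in its body and to 0% in its TSS window. Both genes were named after their values were seen.

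Of the 44 protein-coding TSS windows that were covered to 100%, like that of GSTA2, 39 were in the lowest quartile of the CpG ratio, where GSTA2 also lies. That is 0.779% of the 5009 windows of that quartile, although 15.1% of its windows had a peak at all, close to the 16.9% of all windows. Chromosome 6 held 6 of the 44, and 1051 of all 20033 windows. Chromosomes 1 and 16 held 5 of the 44 each.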
